A study of Mus musculus with 18 samples.

Results

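The receptors of the fast transmitters glutamate, GABA and glycine were followed across 6 groups of mouse samples. Their genes were taken by symbol: the AMPA (Gria), kainate (Grik), NMDA (Grin), delta (Grid) and metabotropic (Grm) glutamate receptors, the GABA-A (Gabr) and GABA-B (Gabbr) receptors, and the glycine receptors (Glra, Glrb). This gave 43 of the 18193 genes on the arrays, measured by 88 probe sets. They comprise 4 AMPA, 5 kainate, 6 NMDA, 1 delta and 6 metabotropic glutamate receptor genes, 15 GABA-A, 1 GABA-B and 5 glycine receptor genes. Other genes of these families are not analysed here. Each gene is given by the brightest of its probe sets over the 18 arrays.

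Wildtype and SOD1 mutant mice were each sampled in 3 ways: tissue of the ventral spinal cord, spinal motor neurons, and facial motor neurons. Each of these 6 groups has 3 arrays, hybridised with RNA that the labels describe as linearly amplified with T7. The labels give neither the SOD1 allele or promoter, nor strain, sex, age, or how the motor neurons were collected, and the code D60 in every title is not explained. They do not tie arrays to animals, so a p-value here reflects the spread of these samples alone, some of which may be technical.

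AMPA, kainate and NMDA receptors are cation channels opened by glutamate, and they carry most of the excitatory drive to motor neurons. GABA-A and glycine receptors are chloride channels through which spinal interneurons inhibit motor neurons, while metabotropic glutamate and GABA-B receptors act through G proteins. The AMPA subunit GluA2, made by Gria2, keeps calcium out of the channel, and calcium entry through receptors poor in GluA2 is a long-standing theme of motor neuron vulnerability.

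Levels are log2(intensity + 16) after quantile normalization, and levels of different genes cannot be compared because probe sets differ in brightness. Arrays of one group correlated at a mean r of 0.915 to 0.976 across genes. The mutant minus wildtype log2 difference of Sod1, which checks the genotype labels, was 0.38 in tissue (SE 0.07, adjusted p = 0.0395), 0.46 for spinal (SE 0.09, adjusted p = 0.141) and 0.24 for facial motor neurons (SE 0.07, adjusted p = 0.162). The summed intensity of 8 motor neuron markers was 233800 to 272700 on motor neuron arrays and 76390 to 86290 on tissue arrays. Of these markers Chat and Mnx1 lay below the dim limit in both tissue groups and Isl2 in wildtype tissue. Mnx1, a motor neuron transcription factor, lay below it in both facial groups. Markers of oligodendrocytes summed to 178800 to 280900 on the motor neuron arrays, against 492700 to 537200 in tissue.

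Most of the receptor genes were readable in these samples, and a minority lay near background. The dim limit was a log2 level of 8.79, the 40th percentile of all genes. Of the 43 genes, 21 had a mean above it in all 6 groups, 13 in some groups, and 9 in none: Gabra6, Gabre, Gabrg3, Gabrq, Gabrr1, Gabrr2, Grin2a, Grm2 and Glra4. In any comparison 33 genes were bright enough to be tested. Grik3, at 8.90 ± 0.26 (SD, n = 3) in mutant tissue and between 5.06 and 8.78 in the other groups, was not tested.

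**Figure D1:**
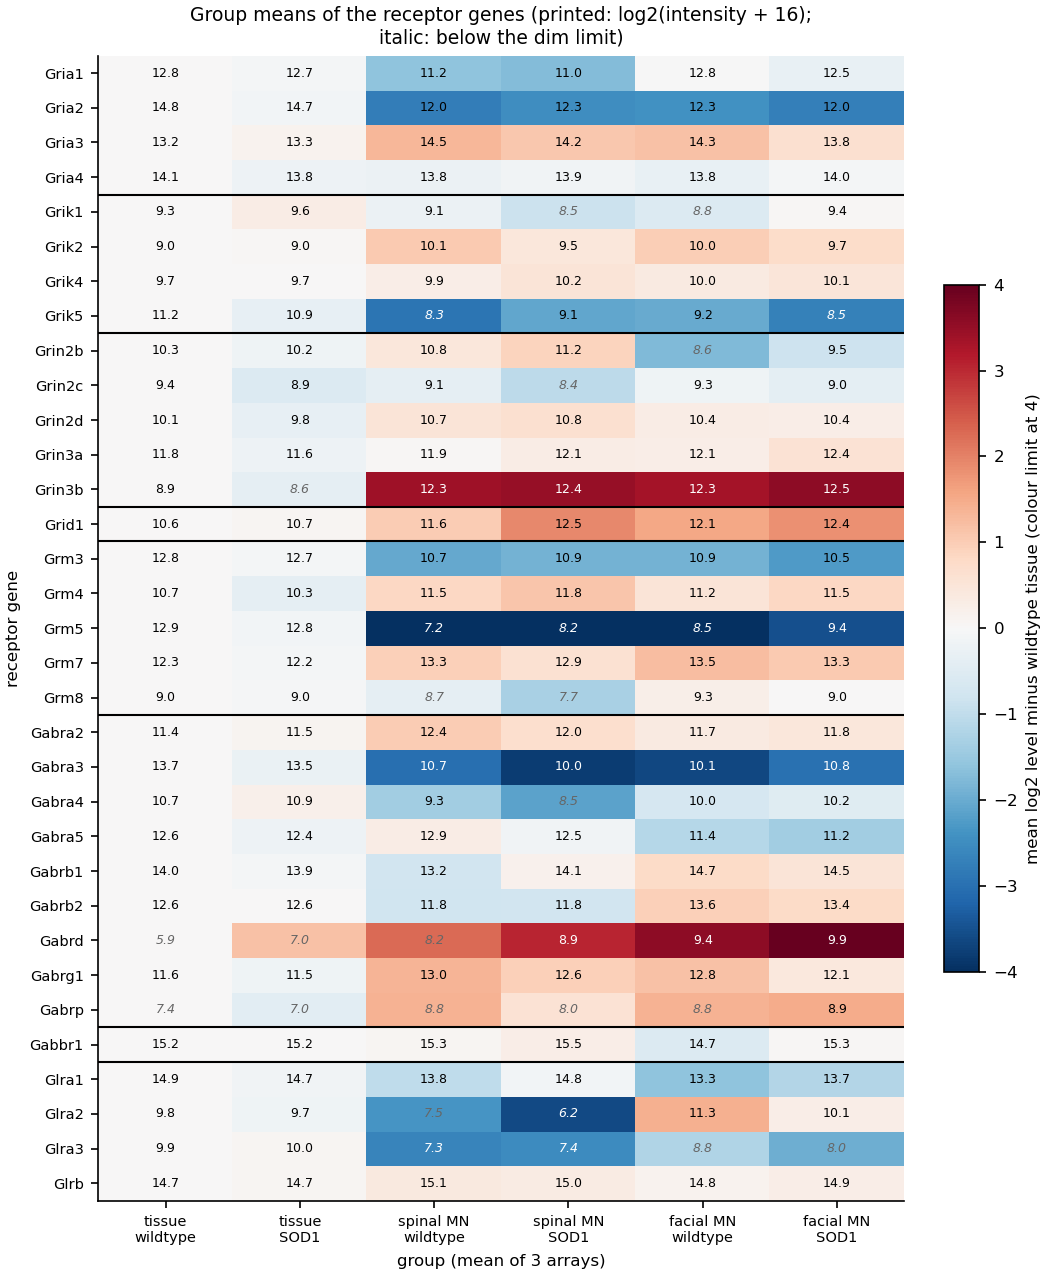
Mean levels of the 33 tested receptor genes in the 6 groups, by receptor class (3 arrays per group). Printed values are log2(intensity + 16), and the colour is the difference from wildtype tissue on the log2 scale. Grin3b is red and Gria2, Grm3, Grm5 and Gabra3 are blue in all 4 motor neuron groups.

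Many receptor genes differed between motor neurons and ventral cord tissue, in a share close to that of all genes. The labels place the facial motor neurons in the brainstem, so for them region and cell type cannot be told apart. In wildtype spinal motor neurons 7 of the 29 tested receptor genes were higher than in wildtype tissue and 9 were lower, at adjusted p under 0.05 in limma. Of all 10916 tested genes 35.5% were higher and 23.1% lower. In SOD1 mutant spinal motor neurons 11 of 27 were higher (all genes 42.0%) and 8 lower (26.8%) than in mutant tissue. In wildtype facial motor neurons 10 of 31 were higher (41.3%) and 12 lower (26.9%) than in wildtype tissue. Both wildtype comparisons share the same 3 tissue arrays, and the mutant comparison shares none with them. The median log2 difference of the receptor genes was 0.05, 0.25 and 0.15 in these comparisons, against 0.22, 0.24 and 0.22 over all tested genes.

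These splits depend on the scaling. When arrays were instead given a common median without quantile normalization, the median of all tested genes rose to 0.69, 0.74 and 0.77. Of all genes past the test 78.6%, 79.4% and 78.5% were then higher, against 60.6%, 61.0% and 60.5%. The receptor genes past the test became 11 higher and 7 lower in wildtype spinal, 16 and 7 in mutant spinal, and 16 and 8 in wildtype facial motor neurons. Of the genes called, 5 of 16, 8 of 19 and 9 of 22 then turned or moved by over 1.5 times. With that scaling Gria2 was at -1.82, -1.37 and -1.36 and Gria3 at 2.30, 1.85 and 2.14, while Grin3b was at 3.56, 4.02 and 3.54 and Gabra3 at -2.38, -2.84 and -2.92. For actin, whose transcript is read by a 3' and a 5' control probe set, the ratio of these intensities in tissue was 1.63 ± 0.06 for wildtype and 1.64 ± 0.12 for mutant mice (SD, n = 3). It was 46.5 ± 9.06 and 30.7 ± 7.36 in wildtype and mutant spinal motor neurons, and 67.6 ± 7.44 and 39.8 ± 17.0 in facial ones. The part of this ratio in the differences from tissue was not tested, and it cannot be told apart from the kind of sample. Tissue is also a mixture, in which fewer cells of a type and less RNA per cell cannot be told apart.

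Among the AMPA receptor genes, Gria2 was lower and Gria3 higher in motor neurons in all 3 comparisons. Gria2 stood at 14.67, 14.83 and 14.80 on the wildtype tissue arrays and at 14.64, 14.68 and 14.65 in mutant tissue. Spinal motor neurons stood at 11.70, 12.38 and 11.90 in wildtype and 12.28, 12.54 and 12.01 in mutant samples. The facial arrays read 12.26, 12.47 and 12.31 in wildtype and 11.95, 11.81 and 12.34 in mutant samples. All 12 motor neuron arrays thus lay below all 6 tissue arrays. Gria2 fell by 2.77 in wildtype spinal (SE 0.19, adjusted p = 1.14e-05), by 2.38 in mutant spinal (SE 0.14, adjusted p = 3.57e-07) and by 2.42 in wildtype facial motor neurons (SE 0.10, adjusted p = 6.65e-07), which is 6.83-fold, 5.19-fold and 5.34-fold. The size depends on the probe set: the second brightest gave -0.21, -0.50 and -0.11 in the same order, and the next one -0.79, -0.75 and -0.70. The second probe set passed the test in the mutant comparison only, with an adjusted p of 0.019, and had 0.473 and 0.659 in the wildtype spinal and facial ones. All 3 probe sets were below 0 in all 3 comparisons.

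The promoter of Gria2 is shown because this gene has the best known role in the calcium permeability of AMPA receptors. The 300 bases around the RefSeq start are printed, on the minus strand of chr3:80802786-80803085 in GRCm38.p6. Capitals mark GGACAG or its reverse complement, the right element of the RE1 sequence bound by the repressor REST of non-neuronal cells.
Gria2: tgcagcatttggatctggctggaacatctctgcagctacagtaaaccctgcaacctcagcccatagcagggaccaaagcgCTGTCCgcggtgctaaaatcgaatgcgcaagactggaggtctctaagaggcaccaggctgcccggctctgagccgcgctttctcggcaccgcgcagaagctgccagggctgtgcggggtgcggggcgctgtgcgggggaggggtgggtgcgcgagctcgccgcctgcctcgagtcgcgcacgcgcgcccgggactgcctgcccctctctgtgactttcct

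Gria3, which encodes GluA3, ran the other way. Its levels were 13.19, 13.30 and 12.99 in wildtype tissue, 14.36, 14.55 and 14.53 in wildtype spinal and 14.46, 14.10 and 14.41 in wildtype facial motor neurons, with no overlap. It rose by 1.32 (SE 0.15, adjusted p = 9.98e-05), or 2.50-fold, in wildtype spinal motor neurons. In mutant spinal motor neurons it rose by 0.93 (SE 0.12, adjusted p = 6.67e-05), and in wildtype facial ones by 1.17 (SE 0.13, adjusted p = 9.06e-05). A second probe set gave 0.88, 1.78 and 0.43, the last with an adjusted p of 0.112.

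Gria1, which encodes GluA1, separated the spinal from the facial motor neurons. It read 12.75, 12.74 and 12.79 in wildtype tissue, 10.54, 11.53 and 11.39 in wildtype spinal, and 12.48, 13.02 and 12.74 in wildtype facial motor neurons. It fell by 1.60 in wildtype spinal (SE 0.26, adjusted p = 0.000866) and by 1.68 in mutant spinal motor neurons (SE 0.19, adjusted p = 3.1e-05) against tissue. In wildtype facial motor neurons it differed from tissue by -0.01 (SE 0.14, adjusted p = 0.966). A second bright probe set of Gria1 gave -1.68 in wildtype spinal, -1.92 in mutant spinal and -0.67 in wildtype facial motor neurons. At its brightest probe set Gria4, which encodes GluA4, differed by -0.24 and 0.06 in wildtype and mutant spinal motor neurons without passing the test. In facial ones it fell by 0.28 (SE 0.08, adjusted p = 0.0172). This call was lost without wildtype tissue replicate 3 (adjusted p = 0.0617) and with all 18 arrays in one fit (adjusted p = 0.179). The difference turned to 0.79 higher with a common median. Another bright probe set of Gria4 gave -0.91 in wildtype spinal, -1.67 in mutant spinal and -1.14 in wildtype facial motor neurons.

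**Figure D2:**
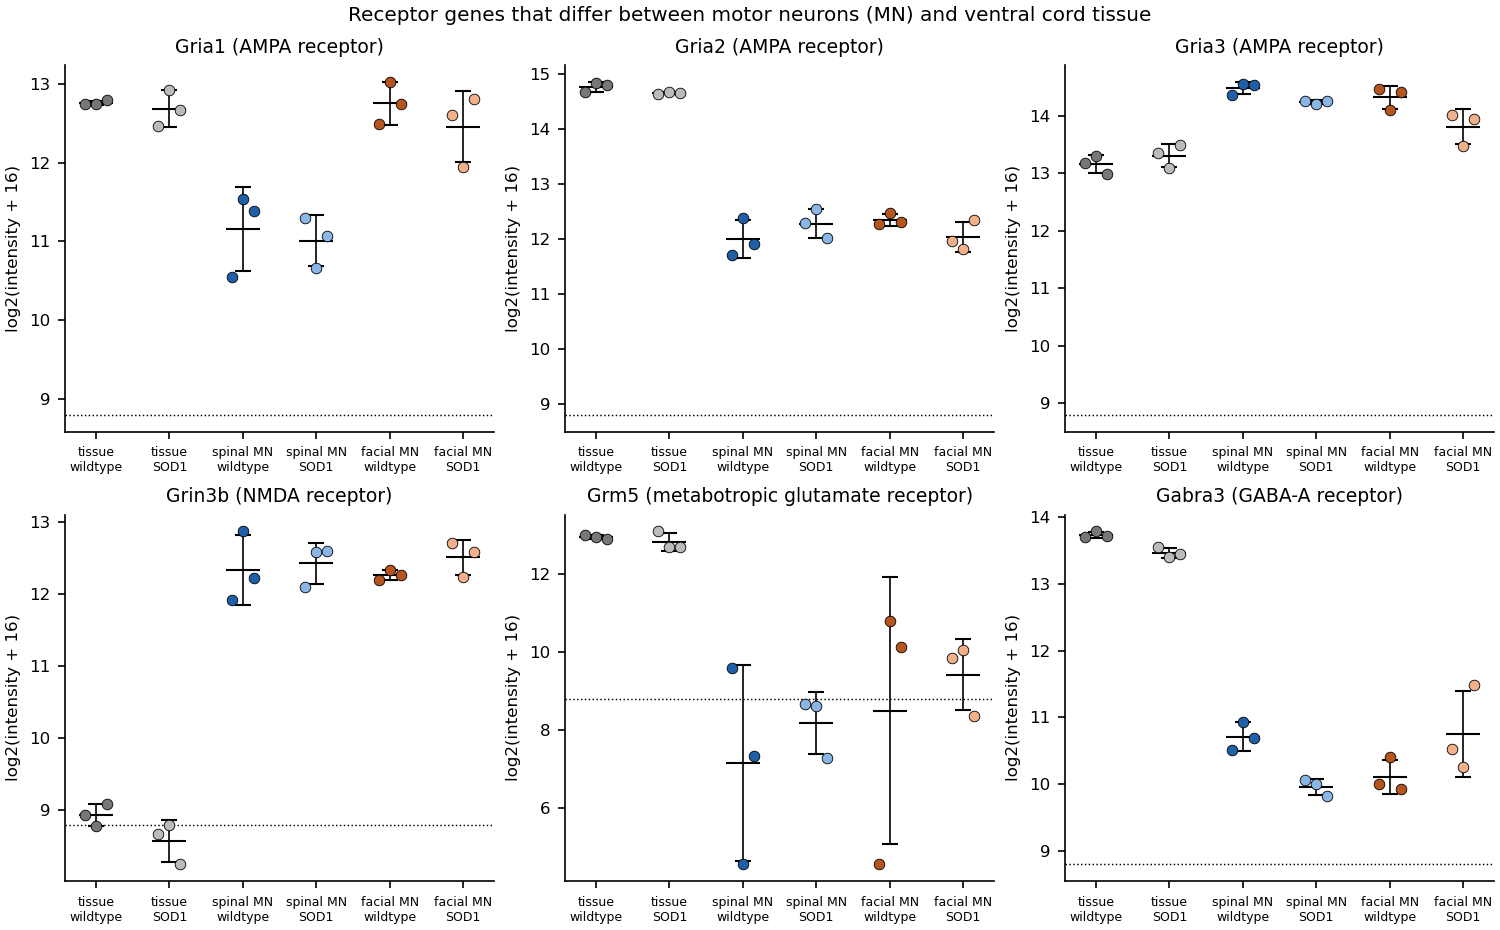
Levels of 6 receptor genes on the 18 arrays, as log2(intensity + 16), by group. Points are arrays, bars are the mean and SD of 3 arrays, MN stands for motor neurons, and the dotted line is the dim limit of 8.79. Gria2, Grm5 and Gabra3 are lower and Grin3b is higher on all 12 motor neuron arrays than on all 6 tissue arrays, while Gria1 is low on the 6 spinal motor neuron arrays.

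The kainate receptor gene Grik5, which encodes the high-affinity subunit GluK5, was lower in motor neurons. It read 11.30, 11.16 and 11.21 in wildtype tissue and 7.27, 8.58 and 9.05 in wildtype spinal motor neurons, 2 of them below the dim limit. The facial wildtype arrays read 9.87, 9.24 and 8.49. It fell by 2.92 in wildtype spinal (SE 0.44, adjusted p = 0.000571), 1.74 in mutant spinal (SE 0.35, adjusted p = 0.00128) and 2.02 in wildtype facial motor neurons (SE 0.33, adjusted p = 0.00087). Grik2, which encodes GluK2, was higher by 1.05 in wildtype spinal (SE 0.32, adjusted p = 0.021) and by 0.9997 in wildtype facial motor neurons (SE 0.34, adjusted p = 0.0292). In mutant spinal motor neurons it differed by 0.42 (SE 0.34, adjusted p = 0.297). Both calls of Grik2 were lost without wildtype tissue replicate 1, 2 or 3, and the facial one also without wildtype facial replicate 3 (adjusted p between 0.0539 and 0.101). Its second probe set gave -0.54 in wildtype spinal motor neurons. Grik1 and Grik4 passed in none of these comparisons.

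Among the NMDA receptor genes, Grin3b had the largest rise of the tested receptor genes in each of these 3 comparisons. It encodes GluN3B, a glycine-binding subunit known from motor neurons. It stood at 8.93, 8.79 and 9.09 in wildtype tissue and 8.68, 8.80 and 8.25 in mutant tissue, close to the dim limit. The spinal motor neuron arrays stood at 11.92, 12.87 and 12.22 in wildtype and 12.09, 12.58 and 12.59 in mutant samples. The facial arrays read 12.19, 12.33 and 12.27 in wildtype and 12.71, 12.23 and 12.59 in mutant samples. The lowest motor neuron array was thus well above the highest tissue array. Grin3b rose by 3.40 in wildtype spinal (SE 0.28, adjusted p = 2.46e-05), by 3.85 in mutant spinal (SE 0.23, adjusted p = 3.82e-07) and by 3.32 in wildtype facial motor neurons (SE 0.17, adjusted p = 1.69e-06). It kept its call in each setting that could be fitted, leaving out each array included.

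The promoter window of Grin3b is shown as that of the gene with the largest rise. It lies on the plus strand of chr10:79970474-79970773 in GRCm38.p6. Capitals mark TATAAA, the TATA box, and the reverse complement of GGACAG.
Grin3b: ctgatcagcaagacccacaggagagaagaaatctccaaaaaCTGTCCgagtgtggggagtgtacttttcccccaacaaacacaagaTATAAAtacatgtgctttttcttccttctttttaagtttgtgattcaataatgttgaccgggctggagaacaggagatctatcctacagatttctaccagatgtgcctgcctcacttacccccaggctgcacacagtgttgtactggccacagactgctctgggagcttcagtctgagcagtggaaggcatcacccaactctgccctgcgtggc

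The other NMDA receptor genes differed less. In mutant spinal motor neurons Grin2b rose by 1.06 (SE 0.17, adjusted p = 0.000333), Grin2d by 0.96 (SE 0.21, adjusted p = 0.00249) and Grin3a by 0.51 (SE 0.16, adjusted p = 0.0161) against mutant tissue. With Grin3b all 4 tested NMDA receptor genes rose there. Grin2c and Grin2a were too dim to be tested in that comparison, and were at -0.50 and 0.53. The call of Grin3a was lost without mutant tissue replicate 1 (adjusted p = 0.0542). In wildtype spinal motor neurons Grin2b, Grin2d and Grin3a were at 0.47, 0.53 and 0.05 and did not pass. Grin2b, which encodes the GluN2B subunit, fell by 1.76 in wildtype facial motor neurons (SE 0.27, adjusted p = 0.000516). Its second probe set gave -0.04 in mutant spinal and -1.04 in wildtype facial motor neurons. Grin2c passed in neither wildtype comparison. Grid1, a delta receptor that binds synaptic organizers, rose by 1.85 in mutant spinal (SE 0.15, adjusted p = 3.19e-06) and by 1.55 in wildtype facial motor neurons (SE 0.13, adjusted p = 2.44e-05). In wildtype spinal motor neurons it was at 1.03 (SE 0.47, adjusted p = 0.0873), with arrays at 10.49, 12.69 and 11.68.

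Metabotropic receptor genes went in both directions at their brightest probe sets. Grm5 and Grm3, which encode mGlu5 and mGlu3, were lower in motor neurons, and Grm4 and Grm7, which encode receptors known as presynaptic brakes, were higher. Grm5 read 12.99, 12.94 and 12.89 in wildtype tissue. In motor neurons it read 9.58, 4.56 and 7.33 in wildtype spinal, 8.67, 8.60 and 7.27 in mutant spinal, and 4.56, 10.79 and 10.13 in wildtype facial samples. Most of these lay below the dim limit, so the size of the fall is uncertain. The log2 differences were -5.78 (SE 1.01, adjusted p = 0.00124), -4.63 (SE 0.35, adjusted p = 1.61e-06) and -4.45 (SE 1.41, adjusted p = 0.0224). The facial call was lost without wildtype tissue replicate 1, 2 or 3 (adjusted p between 0.0596 and 0.0661). A second probe set of Grm5 gave -3.71, -2.75 and -3.82.

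Grm3 read 12.71, 12.98 and 12.65 in wildtype tissue, 10.38, 10.43 and 11.40 in wildtype spinal and 11.13, 10.67 and 10.85 in wildtype facial motor neurons. It fell by 2.04 (SE 0.28, adjusted p = 0.000365), by 1.81 in mutant spinal motor neurons (SE 0.22, adjusted p = 4.86e-05) and by 1.90 in facial ones (SE 0.16, adjusted p = 2.4e-05). Both Grm3 and Grm5 are also made by astrocytes, whose 7 markers summed to 219700 to 271800 in tissue and to 34360 to 81960 on motor neuron arrays. The part of other cell types in these differences was not tested. Grm4 rose by 0.84 (SE 0.20, adjusted p = 0.00664), 1.48 (SE 0.19, adjusted p = 6.14e-05) and 0.50 (SE 0.20, adjusted p = 0.0491). The last call was lost without any 1 of the 3 wildtype tissue arrays or of wildtype facial replicates 1 and 3 (adjusted p between 0.0797 and 0.126). It was also lost with the replicate number as a block (adjusted p = 0.0649), with no filter (0.0726) and with normalization within the comparison (0.0519). Grm7 rose by 0.97 (SE 0.16, adjusted p = 0.000936), 0.68 (SE 0.15, adjusted p = 0.00203) and 1.22 (SE 0.10, adjusted p = 1.8e-05), but its second probe set gave -0.15, -0.33 and 0.32. With a common median Grm7 was at 1.67, 1.33 and 1.95. Grm8 did not pass in either wildtype comparison.

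Of the GABA-A receptor subunit genes, Gabra3 showed the largest fall. It encodes the alpha3 subunit. Its levels were 13.70, 13.79 and 13.73 in wildtype and 13.56, 13.40 and 13.45 in mutant tissue. Spinal motor neurons read 10.50, 10.93 and 10.70 in wildtype and 10.05, 10.001 and 9.82 in mutant samples. Facial ones read 10.003, 10.40 and 9.92 in wildtype and 10.53, 10.25 and 11.48 in mutant samples. Tissue and motor neuron arrays were far apart in both genotypes. Gabra3 fell by 3.03 (SE 0.18, adjusted p = 5.34e-06), 3.51 (SE 0.14, adjusted p = 5.9e-08) and 3.63 (SE 0.15, adjusted p = 8.15e-07) in wildtype spinal, mutant spinal and wildtype facial motor neurons, which is 8.17-fold, 11.4-fold and 12.4-fold. The calls held in all settings fitted.

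Gabra4, the alpha4 gene, fell by 1.41 (SE 0.32, adjusted p = 0.00494), 2.35 (SE 0.39, adjusted p = 0.000407) and 0.67 (SE 0.22, adjusted p = 0.027). The facial call was lost without wildtype tissue replicates 1 or 3 or wildtype facial replicate 2 (adjusted p between 0.054 and 0.106). It was also lost with a common median (adjusted p = 0.0576) and with all 18 arrays in one fit (adjusted p = 0.122), and a second, dim probe set gave 0.25. Gabrg1, which encodes the gamma1 subunit, rose by 1.35 (SE 0.31, adjusted p = 0.00532), 1.12 (SE 0.16, adjusted p = 0.00016) and 1.17 (SE 0.13, adjusted p = 9.91e-05). It read 11.76, 11.42 and 11.72 in wildtype tissue and 13.50, 12.23 and 13.22 in wildtype spinal motor neurons. A second probe set of Gabrg1, below the dim limit over the 18 arrays, gave -2.46, -2.40 and -3.03, so its direction against tissue is uncertain. Gabrd, the delta subunit gene, lay below the dim limit in both tissue groups and at 9.44 ± 0.16 and 9.85 ± 0.44 (SD, n = 3) in facial motor neurons.

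Gabra2, the alpha2 gene, gave opposite answers by probe set. The brightest read 11.64, 11.04 and 11.42 in wildtype tissue and 11.84, 11.18 and 11.38 in mutant tissue. It read 12.54, 11.998 and 12.59 in wildtype spinal, 11.77, 11.85 and 12.52 in mutant spinal, 12.05, 11.39 and 11.70 in wildtype facial and 11.33, 12.52 and 11.64 in mutant facial motor neurons. It rose by 1.01 in wildtype spinal (SE 0.24, adjusted p = 0.00568) and by 0.58 in mutant spinal motor neurons (SE 0.23, adjusted p = 0.0481), and was at 0.35 in facial ones (SE 0.22, adjusted p = 0.188). Both other bright probe sets gave -2.77, -2.77 and -3.92, and -2.30, -1.82 and -3.18. No direction for Gabra2 against tissue can therefore be given. The mutant call was also lost without mutant tissue replicates 2 or 3 or mutant spinal replicate 3 (adjusted p between 0.119 and 0.171), without the filter (0.0656), without the trend (0.0799) and with all 18 arrays in one fit (0.0946).

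The beta subunit genes Gabrb1 and Gabrb2 were lower in wildtype spinal and higher in wildtype facial motor neurons than in the same tissue at their brightest probe sets, and the spinal falls did not hold with a common median. Gabrb2 read 12.96, 12.65 and 12.25 in wildtype tissue, 12.17, 11.83 and 11.50 in wildtype spinal and 13.49, 13.63 and 13.62 in wildtype facial motor neurons. It fell by 0.78 in wildtype spinal (SE 0.24, adjusted p = 0.022) and by 0.77 in mutant spinal motor neurons (SE 0.24, adjusted p = 0.0155), and rose by 0.96 in facial ones (SE 0.17, adjusted p = 0.00137). The wildtype spinal call was lost without wildtype tissue replicates 1 or 2 or wildtype spinal replicate 3 (adjusted p between 0.0672 and 0.0958). The mutant one was lost without mutant tissue replicate 1 or mutant spinal replicates 1 or 3 (adjusted p between 0.0531 and 0.0605). With a common median both spinal calls were lost, at -0.21 (adjusted p = 0.486) and -0.13 (adjusted p = 0.67), and the facial rise was 1.75. The second probe set gave -0.32 in wildtype spinal motor neurons (adjusted p = 0.211). For the facial rise the other bright probe sets gave 1.05, -0.23 and 0.0033. Gabrb1 fell by 0.75 in wildtype spinal (SE 0.26, adjusted p = 0.0323) and rose by 0.77 in wildtype facial motor neurons (SE 0.10, adjusted p = 0.000245). In mutant spinal motor neurons it was at 0.26 (SE 0.12, adjusted p = 0.0928). Its spinal fall was lost without any 1 of the 3 wildtype tissue arrays (adjusted p between 0.0613 and 0.102) and without the trend, and became 0.24 higher with a common median. Gabra5, the alpha5 gene, fell by 1.16 in wildtype facial motor neurons (SE 0.23, adjusted p = 0.00216), a call lost with a common median, at -0.54 (adjusted p = 0.0731). It was at 0.31 and 0.06 in wildtype and mutant spinal ones and did not pass.

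Gabbr1, which encodes the GABA-binding subunit of the GABA-B receptor, differed by small amounts at its brightest probe set. It rose by 0.25 in mutant spinal motor neurons (SE 0.08, adjusted p = 0.022) and fell by 0.54 in wildtype facial ones (SE 0.07, adjusted p = 0.000215). It was at 0.09 in wildtype spinal ones (SE 0.16, adjusted p = 0.648). The rise was lost without mutant tissue replicate 2 or mutant spinal replicates 1 or 3 (adjusted p between 0.0507 and 0.0857), without the trend (0.0978) and with all 18 arrays in one fit (0.22). With a common median the rise was 1.46 and the fall became 0.77 higher. The second probe set gave -0.04, -0.02 and -0.24, none past the test where it was run. The least bright of its 3 probe sets above the dim limit gave -3.91, -3.48 and -4.06.

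Of the glycine receptor genes Glra1, Glra2 and Glra3 passed the test against tissue in facial motor neurons, but Glra2 and Glra3 were too dim in the spinal comparisons to be tested there. Glra1, the alpha1 gene of the adult receptor, read 14.70, 14.84 and 15.03 in wildtype tissue and 13.36, 13.07 and 13.32 in wildtype facial motor neurons. It fell by 1.60 there (SE 0.12, adjusted p = 9.48e-06), or 3.04-fold, and by 0.46 with a common median (adjusted p = 0.00661). In wildtype spinal motor neurons its arrays spread from 12.79 to 15.15, a difference of -1.02 (SE 0.49, adjusted p = 0.102), and in mutant ones it was at 0.05 (SE 0.10, adjusted p = 0.673). A second, dimmer probe set gave -4.85, -4.60 and -6.02 in wildtype spinal, mutant spinal and wildtype facial motor neurons. Glra2, the alpha2 gene, rose by 1.41 in facial motor neurons (SE 0.24, adjusted p = 0.000946), a call lost with all 18 arrays in one fit (adjusted p = 0.0908). Glra3 fell by 1.19 to below the dim limit there (SE 0.39, adjusted p = 0.025), a call lost without wildtype tissue replicates 1 or 3 (adjusted p of 0.11 and 0.0658). Glrb, the beta gene that anchors the receptor to gephyrin, was at 0.40 (adjusted p = 0.0582), 0.23 (adjusted p = 0.0997) and 0.15 (adjusted p = 0.289) and did not pass. These values are of its brightest probe set. A second bright one gave 2.26, 1.54 and 1.37, so the size of the difference of Glrb from tissue is uncertain.

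Probe sets of one gene spread widely when amplified motor neurons were set against tissue. Of the tested genes, 15 had more than 1 probe set above the dim limit, 36 probe sets in all. The median range between probe sets of a gene was 1.12 on the log2 scale in the wildtype spinal comparison with tissue, and Gabbr1 had the widest range, 3.997. In the genotype comparison in tissue the median range was 0.16. Between wildtype spinal and facial motor neurons it was 0.59. Among the genes called in wildtype spinal motor neurons, 10 of 14 other bright probe sets had the sign of the brightest one, in mutant spinal ones 9 of 15, and in wildtype facial ones 15 of 16. All bright probe sets of Gria1, Gria2, Gria3 and Grm5 shared a sign in these 3 comparisons. Grin3b, Gabra3, Grm3, Grm4, Gabrg1 and Gabra5 each rest on 1 bright probe set. Of the dim second probe sets of these genes, that of Gabra3 had the same sign and that of Gabrg1 the opposite one. A dim second probe set of Grid1 gave -1.26, -1.08 and -2.98, also opposite to its bright one.

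**Figure D3:**
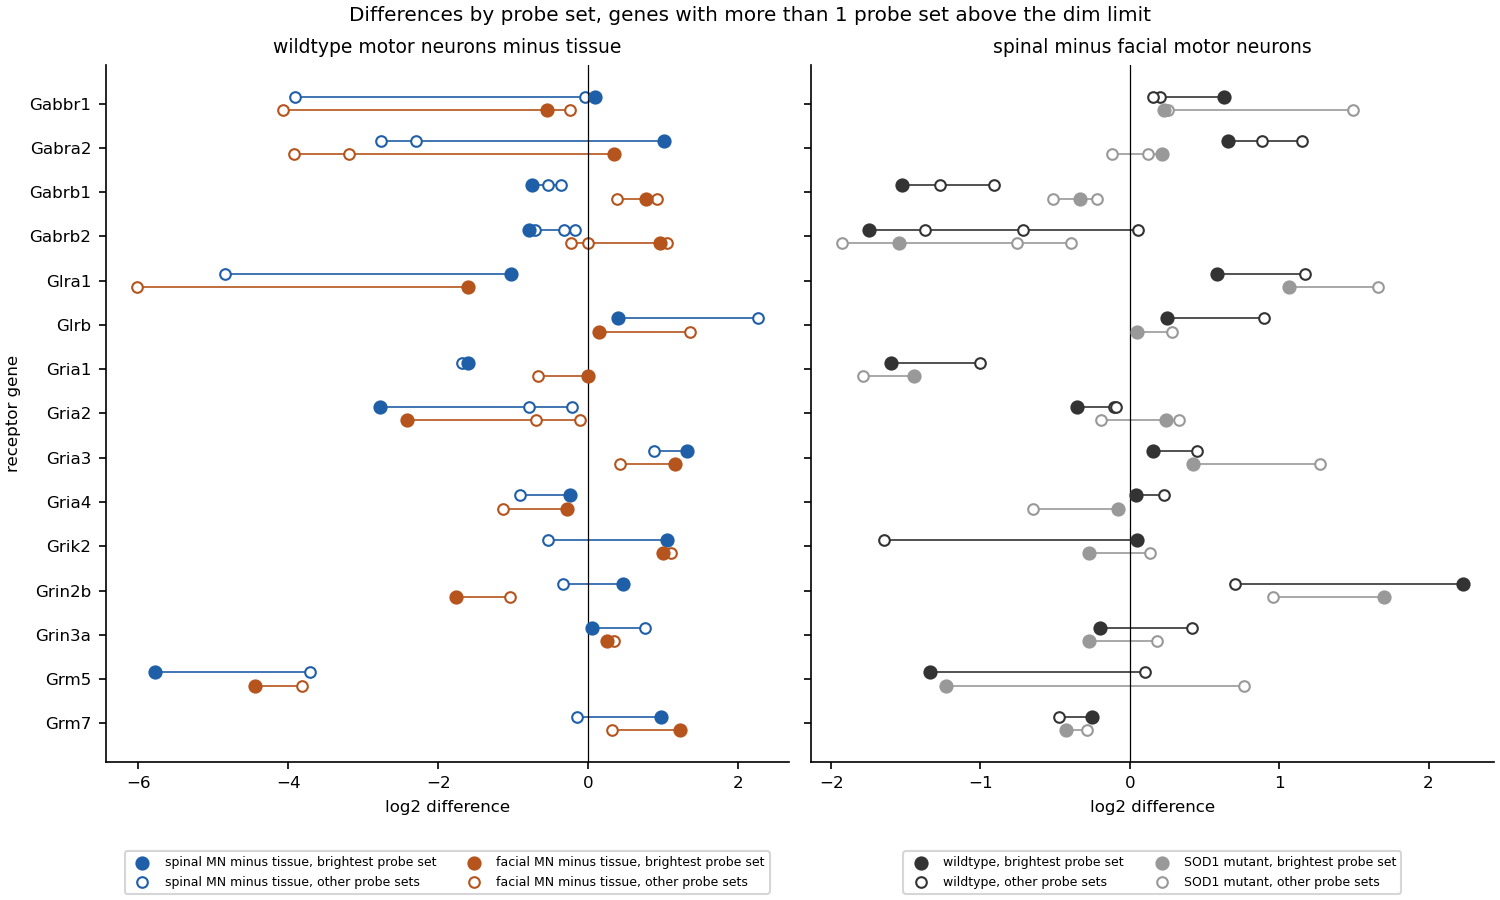
Log2 differences of each probe set of the 15 receptor genes with more than 1 probe set above the dim limit. The left panel sets wildtype motor neurons (MN) against wildtype tissue, the right panel sets spinal against facial motor neurons in each genotype; filled points are the brightest probe set, open points the others. Gabra2, Gabbr1 and Glra1 have probe sets up to 4.41 apart against tissue, and the right panel has a shorter scale.

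The genes that hold receptors at the synapse were measured in the same fits. Their differences are given after quantile normalization and for the brightest probe set only. Of 57 listed companion genes, 46 were tested in wildtype spinal motor neurons, 7 higher (all genes 35.5%) and 21 lower (23.1%) than in tissue. In mutant spinal motor neurons 14 were higher (42.0%) and 22 lower (26.8%) of 44, and in wildtype facial ones 6 (41.3%) and 22 (26.9%) of 44. The rises with the smallest p included Kctd8, an auxiliary subunit of GABA-B receptors (2.32, 1.75 and 1.63), and the AMPA receptor partner Cacng5 (2.20, 2.66 and 2.32). Grip1, a scaffold of AMPA receptors, rose by 2.12, 2.31 and 2.04, and Neto1, a partner of kainate receptors, by 1.51 and 1.49 in the wildtype comparisons. Nlgn2, an adhesion protein of inhibitory synapses, rose by 2.27 in mutant spinal motor neurons.

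Among the falls with the smallest p, Slc12a2, which imports chloride, was at -2.22, -2.21 and -1.97 in wildtype spinal, mutant spinal and wildtype facial motor neurons. Gabarapl2, a relative of the GABA-A receptor binding protein Gabarap, was at -1.79, -1.62 and -1.61. Nptx1, a secreted protein that clusters AMPA receptors, fell by 4.32 in wildtype spinal motor neurons. The trafficking adaptor Trak2 was at -3.19 and -3.11 in the wildtype and mutant spinal comparisons. Gabarap fell by 0.83 in mutant spinal, and Nsf, a vesicle fusion ATPase, by 0.85 in facial motor neurons. The median difference of all tested genes from tissue rose with a common median, so the direction of these small falls is uncertain. Adarb1, the enzyme that edits the Gria2 transcript, fell by 2.38 in wildtype facial motor neurons (SE 0.19, adjusted p = 1.68e-05). It was at -2.25 in wildtype and -1.52 in mutant spinal ones, with adjusted p of 0.00257 and 4.4e-05.

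Spinal and facial motor neurons differed in a few receptor genes, and 4 of them passed in both genotypes. In wildtype 2 of 31 tested receptor genes were higher in spinal motor neurons (all genes 2.13%) and 4 lower (1.82%). In SOD1 mutants 3 of 27 were higher (4.09%) and 2 lower (3.22%). With a common median the mutant split was 3 and 3, and the share of higher genes among all calls went from 56.0% to 39.9%, while the wildtype split stayed at 2 and 4. No array is shared between the genotypes. Of the 27 genes tested in both, 5 passed in wildtype and 5 in mutants, and 4 passed in both with the same sign: Gabra5, Grin2b, Gabrb2 and Gria1. Over all 10534 genes tested in both, 422 and 775 passed, 199 of them in both with the same sign. Over these 27 genes the differences of both genotypes correlated at r = 0.718 (Spearman 0.548), against 0.547 over 10534 genes, as a description across genes that share arrays within a genotype. The signs were the same in 17 of the 27.

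Gabrb2, the beta2 gene, was lower in spinal than in facial motor neurons. It read 12.17, 11.83 and 11.50 in wildtype and 11.74, 12.42 and 11.38 in mutant spinal samples, against 13.49, 13.63 and 13.62 in wildtype and 13.64, 13.00 and 13.54 in mutant facial samples. Tissue, at 12.25 to 12.96 over both genotypes, lay between the facial and most of the spinal arrays. The difference was -1.74 in wildtype (SE 0.21, adjusted p = 0.00471), or 3.35-fold, and -1.54 in mutants (SE 0.27, adjusted p = 0.0058), or 2.92-fold. Of its 3 other bright probe sets, 2 gave -1.37 and -0.72 in wildtype and -1.93 and -0.75 in mutants, and the remaining one 0.05 and -0.40.

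Gabra5 ran the opposite way. Spinal motor neurons read 12.80, 13.05 and 12.89 in wildtype and 12.48, 12.45 and 12.46 in mutant samples. Facial ones read 10.96, 11.86 and 11.53 in wildtype and 11.05, 11.35 and 11.26 in mutant samples, so no facial array reached a spinal one. The difference was 1.47 in wildtype (SE 0.26, adjusted p = 0.0186) and 1.24 in mutants (SE 0.19, adjusted p = 0.00331). The wildtype call was lost without wildtype spinal replicate 3 or wildtype facial replicate 3 (adjusted p of 0.0834 and 0.081).

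The promoter windows of these GABA-A receptor genes are shown because they differed in opposite directions between the same samples. Gabrb2 has 3 windows in the RefSeq table, and the most upstream is printed, on the plus strand of chr11:42420190-42420489 in GRCm38.p6. That of Gabra5 lies on the minus strand of chr7:57510010-57510309. Capitals mark matches of either strand to TATAAA, to the GC box GGGCGG and to GGACAG.
Gabrb2: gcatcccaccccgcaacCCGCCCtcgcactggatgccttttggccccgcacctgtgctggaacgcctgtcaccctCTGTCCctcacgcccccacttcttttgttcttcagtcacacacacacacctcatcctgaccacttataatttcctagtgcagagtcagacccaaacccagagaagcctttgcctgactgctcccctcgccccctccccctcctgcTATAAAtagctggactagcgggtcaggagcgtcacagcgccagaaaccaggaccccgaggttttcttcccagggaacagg
Gabra5: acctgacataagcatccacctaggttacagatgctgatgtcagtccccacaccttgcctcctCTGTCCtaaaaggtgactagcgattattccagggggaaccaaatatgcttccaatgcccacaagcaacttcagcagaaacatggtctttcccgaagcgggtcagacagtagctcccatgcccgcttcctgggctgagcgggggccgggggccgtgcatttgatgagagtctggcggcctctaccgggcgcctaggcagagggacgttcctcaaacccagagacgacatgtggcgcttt

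Grin2b was higher in spinal motor neurons. It read 10.80, 11.59 and 10.03 in wildtype and 11.25, 11.36 and 11.08 in mutant spinal samples, against 8.27, 8.62 and 8.84 and 9.70, 9.38 and 9.49 in facial ones. Wildtype facial levels lay around the dim limit. The difference was 2.23 in wildtype (SE 0.46, adjusted p = 0.0339) and 1.70 in mutants (SE 0.26, adjusted p = 0.00331). Without any 1 of the 6 wildtype arrays the wildtype call was lost (adjusted p between 0.0566 and 0.0998). Its second probe set gave 0.70 and 0.96, with adjusted p of 0.498 and 0.313. The wildtype call was also lost with the replicate number as a block (adjusted p = 0.0563).

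Gria1 was lower in spinal motor neurons, where mutant samples read 11.30, 10.66 and 11.07 against 12.61, 11.95 and 12.81 in mutant facial ones. The difference was -1.60 in wildtype (SE 0.29, adjusted p = 0.0232) and -1.45 in mutants (SE 0.26, adjusted p = 0.00766). A second probe set gave -1.004 (adjusted p = 0.175) and -1.79. The wildtype call was lost without wildtype spinal replicate 3 or wildtype facial replicates 2 or 3 (adjusted p between 0.0768 and 0.098).

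In wildtype alone Gabrb1 passed at -1.52 (SE 0.25, adjusted p = 0.0145) and Glra2 at -3.77 (SE 0.69, adjusted p = 0.0223). Gabrb1 read 13.48, 13.56 and 12.57 in wildtype spinal and 14.86, 14.65 and 14.67 in wildtype facial samples, and its other 2 bright probe sets gave -0.91 and -1.27. Glra2 read 7.73, 5.90 and 8.82 in wildtype spinal samples, at or below the dim limit on most arrays, and 11.56, 10.90 and 11.32 in wildtype facial ones. In mutants Gabrb1 was at -0.33 (adjusted p = 0.196), and Glra2 was too dim over these arrays to be tested. The Gabrb1 call was lost without wildtype facial replicates 2 or 3 (adjusted p of 0.0506 and 0.0569). That of Glra2 was lost without any 1 of the 3 wildtype facial arrays (adjusted p between 0.0625 and 0.0976). In mutants alone Glra1 passed at 1.07 (SE 0.21, adjusted p = 0.0122), a call lost without mutant spinal replicate 2 (adjusted p = 0.051) and with all 18 arrays in one fit (adjusted p = 0.0714).

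**Figure D4:**
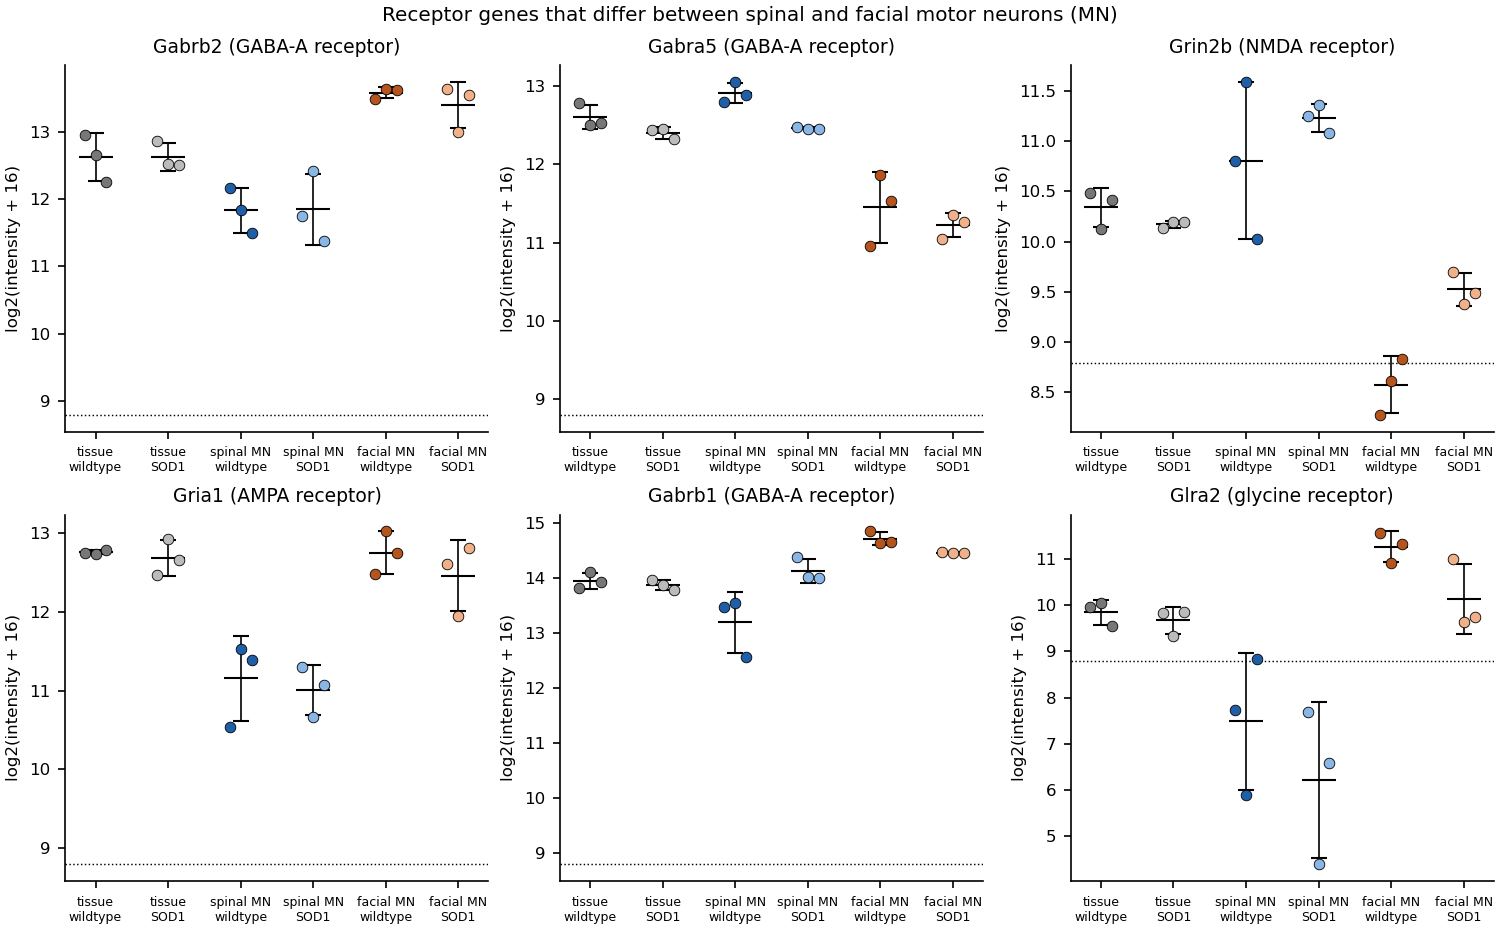
Levels of 6 receptor genes on the 18 arrays, as log2(intensity + 16), by group. Points are arrays, bars are the mean and SD of 3 arrays, MN stands for motor neurons, and the dotted line is the dim limit of 8.79. Gabrb2 and Gria1 are lower and Gabra5 and Grin2b higher on all 6 spinal than on all 6 facial motor neuron arrays.

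Other measures also differed between spinal and facial samples. The 4 markers of inhibitory interneurons summed to 5273 to 12350 in wildtype and 2150 to 61560 in mutant spinal motor neurons, against 844.5 to 2205 and 1617 to 4472 in facial ones and 57920 to 64350 in tissue. Gad1 and Gad2 were below the dim limit in both facial groups. The 3 markers of excitatory interneurons summed to 4721 to 19360 in wildtype and 7951 to 21920 in mutant spinal samples. In facial ones they summed to 5827 to 12780 and 9429 to 50250, and in tissue to 46420 to 54210. The 7 microglial markers summed to 41040 to 50160 in mutant spinal against 10490 to 12640 in mutant facial samples, and 6 of them were higher at adjusted p under 0.05. In wildtype they summed to 4829 to 17680 and 7140 to 20440, and of 6 tested none passed in limma or had an unadjusted p under 0.05. The actin ratio had a higher mean in facial than in spinal samples of each genotype. In wildtype it was 40.9 to 56.9 in spinal and 59.7 to 74.4 in facial samples, without overlap. In mutants it was 25.3 to 39.1 and 26.6 to 59, with overlap. In wildtype the ratio therefore cannot be told apart from the site, and a fit with both cannot separate them. With that ratio as a covariate none of the 6 wildtype genes passed, and Gabrb2 was at -1.37 (adjusted p = 0.19), Gabra5 at 1.11 (adjusted p = 0.343), Grin2b at 1.93 (adjusted p = 0.371) and Gria1 at -2.48 (adjusted p = 0.105). In mutants all 5 passed with it, at -1.67 for Gabrb2, 1.28 for Gabra5, 1.68 for Grin2b, -1.58 for Gria1 and 0.84 for Glra1. Without the mean-variance trend Gabrb2 alone passed in wildtype (adjusted p = 0.0257), and Gabra5 (0.0212) and Grin2b (0.0111) in mutants. The part of the interneuron and microglial markers in these differences was not tested.

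Companion genes were compared between the sites in the same fits. In wildtype 0 of 44 were higher in spinal motor neurons (all genes 2.13%) and 1 lower (1.82%): Dlgap1, a scaffold of the postsynaptic density, at -0.99 (SE 0.22, adjusted p = 0.0443), and it was at -1.68 in mutants (SE 0.23, adjusted p = 0.00183). In mutants Grip1 (1.24), Nlgn2 (0.79), the sorting receptor Sorcs2 (1.16) and Nptx1 (2.05) were also higher, and the AMPA receptor partner Shisa9 lower (-2.80), so that 4 of 44 were higher (all genes 4.09%) and 2 lower (3.22%).

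No receptor gene passed the test between SOD1 mutant and wildtype samples of the same kind in limma. In ventral cord tissue 0 of 30 tested receptor genes passed, where 0.641% of all genes did, and 5 had an unadjusted p under 0.05. In spinal motor neurons 0 of 24 passed (all genes 0.0641%) and 3 had such a p. In facial motor neurons 0 of 32 passed (all genes 0%) and 6 had such a p. The receptor genes had a median SE of 0.13 for tissue, 0.29 for spinal and 0.28 for facial motor neurons; differences within a few SE were not detectable with 3 arrays a group. Arrays of the genotypes did not overlap for 7 receptor genes in tissue (all genes 15.7%), 4 in spinal (14.3%) and 5 in facial motor neurons (24.1%).

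**Figure D5:**
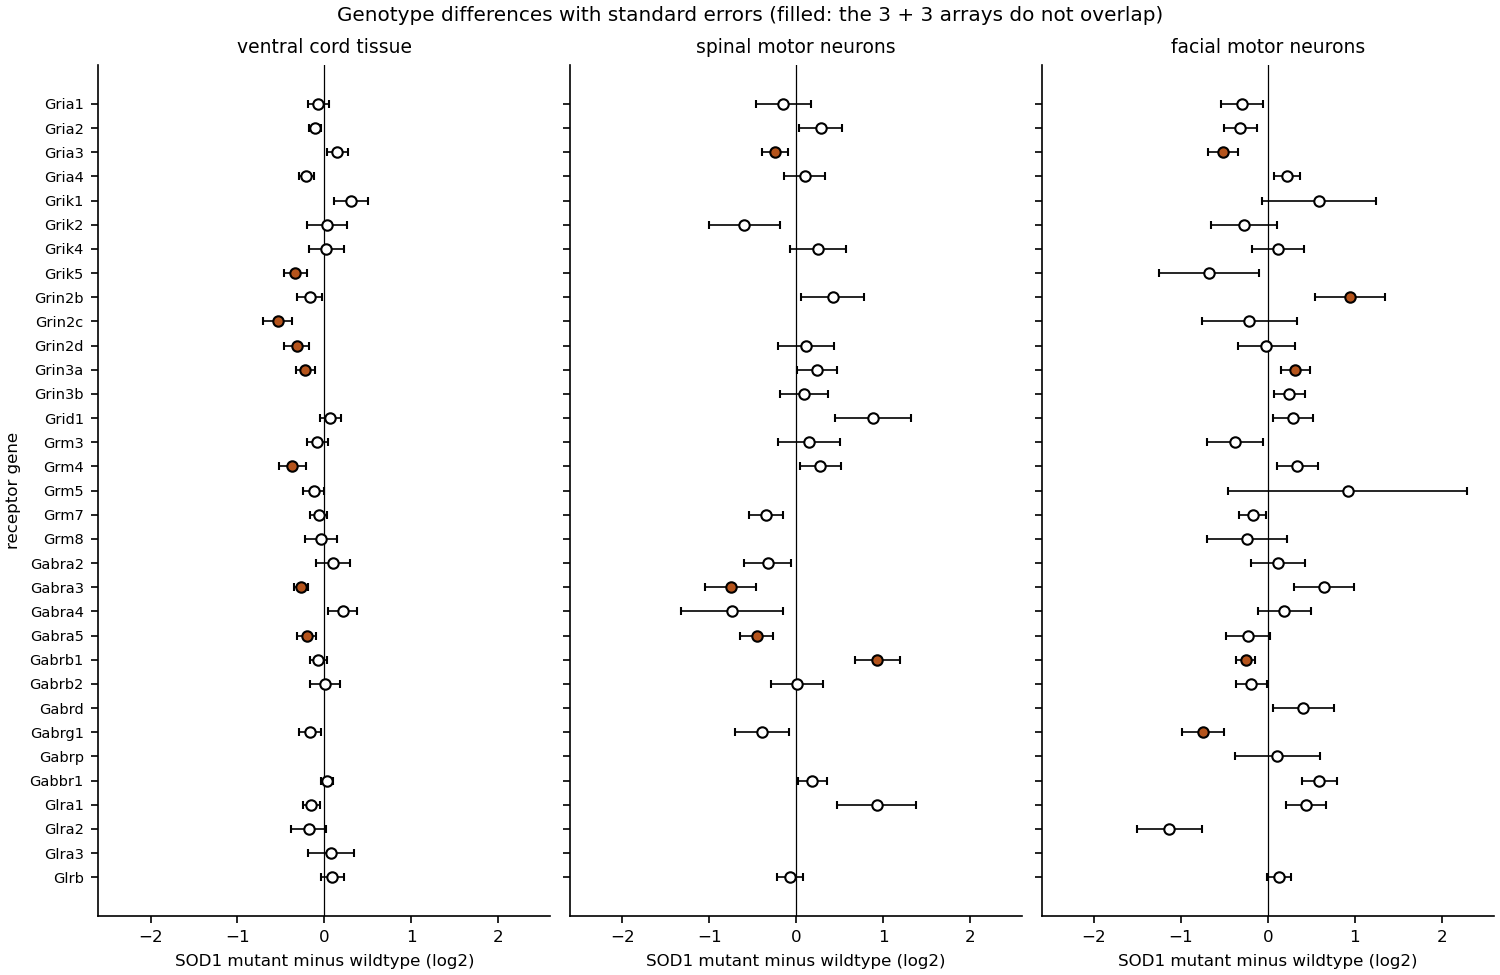
Log2 differences between SOD1 mutant and wildtype samples for the tested receptor genes in ventral cord tissue, spinal motor neurons and facial motor neurons. Points are limma estimates, bars are standard errors, and filled points mark genes whose 3 mutant arrays all lie on one side of the 3 wildtype arrays. Most estimates lie between -1 and 1, and none passed the adjusted test.

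In tissue the smallest p belonged to Gabra3 (-0.27, SE 0.08, adjusted p = 0.278), the NMDA receptor gene Grin2c (-0.54, SE 0.16, adjusted p = 0.293), Grik5 (-0.33, SE 0.13, adjusted p = 0.438) and Grm4 (-0.37, SE 0.15, adjusted p = 0.472). Grin2c read 9.44, 9.38 and 9.52 in wildtype and 8.99, 8.98 and 8.75 in mutant tissue, without overlap. In tissue 19 of the 30 receptor genes had estimates below 0, against 5594 of 10916 genes. By class these were 4 of 4 NMDA, 5 of 5 metabotropic, 3 of 4 AMPA, 4 of 7 GABA-A, 2 of 4 glycine and 1 of 4 kainate genes. The delta and GABA-B genes were above 0. In spinal motor neurons all 4 tested NMDA genes had estimates above 0. Grin2c and Grin2a, too dim to be tested there, were at -0.69 and -1.57. Genes read on the same arrays are not independent, so these counts are a description. The 7 microglial markers summed to 44280 to 46790 in wildtype and 61570 to 66210 in mutant tissue, a shift whose part in these values was not tested.

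In spinal motor neurons the smallest p belonged to 3 GABA-A genes and Glra1. Gabrb1 read 13.48, 13.56 and 12.57 in wildtype and 14.39, 14.02 and 14.003 in mutant samples, without overlap (0.94, SE 0.26, adjusted p = 0.372). Gabra3 was at -0.75 (SE 0.30, adjusted p = 0.493) and Gabra5 at -0.45 (SE 0.19, adjusted p = 0.504), also without overlap. Glra1 was at 0.93 (SE 0.45, adjusted p = 0.54). With all 18 arrays in one fit Gabrb1 passed (adjusted p = 0.0222). Wildtype spinal replicate 2 read highest of its group for Gabrb1, Glra1 and Grid1. Without that array Gabrb1 passed at 1.12 (adjusted p = 0.0302), Glra1 at 1.59 (adjusted p = 0.00665) and Grid1 at 1.42 (adjusted p = 0.0326), and 666 genes in all. The microglial markers summed to 4829 to 17680 in wildtype and 41040 to 50160 in mutant spinal samples, and their part in these values was not tested. The actin ratio did not overlap between genotypes either. It was 40.9 to 56.9 in wildtype and 25.3 to 39.1 in mutant spinal samples, and 59.7 to 74.4 and 26.6 to 59 in facial ones. In motor neurons it therefore cannot be told apart from genotype.

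In facial motor neurons the smallest p belonged to Gabrg1 (-0.74, SE 0.24, adjusted p = 0.186), Gabbr1 (0.59, SE 0.20, adjusted p = 0.192), Glra2 (-1.13, SE 0.38, adjusted p = 0.194) and Gria3 (-0.51, SE 0.17, adjusted p = 0.196). Gabbr1 read 14.73, 14.65 and 14.64 in wildtype and 15.52, 14.73 and 15.56 in mutant samples. Without mutant facial replicate 2 it passed at 0.86 (adjusted p = 0.0251). With all arrays its other bright probe sets gave 0.17 and -0.70, so the direction for Gabbr1 is uncertain. None of the companion genes passed between genotypes in any of the 3 kinds of sample, with 45, 42 and 40 tested and 7, 2 and 5 at an unadjusted p under 0.05.

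Differences between the genotype effects were tested as interactions. For spinal motor neurons against tissue 0 of 28 receptor genes passed (all genes 0.0550%), 3 with an unadjusted p under 0.05. For spinal against facial motor neurons 0 of 29 passed (all genes 0%), 2 with such a p. Gabrb1 had the smallest p in both, at 1.01 (SE 0.31, adjusted p = 0.512) and 1.19 (SE 0.30, adjusted p = 0.339). In the first Grm4 followed at 0.65 (SE 0.27, adjusted p = 0.541), Gabra3 at -0.48 (SE 0.21, adjusted p = 0.561) and Gria3 at -0.39 (SE 0.19, adjusted p = 0.561). In the second Gabra3 followed at -1.40 (SE 0.46, adjusted p = 0.459), Gria2 at 0.60 (SE 0.32, adjusted p = 0.595) and Grik5 at 1.52 (SE 0.92, adjusted p = 0.645). Without wildtype spinal replicate 2, Gabrb1 (1.19, adjusted p = 0.028), Glra1 (1.73, adjusted p = 0.00278) and Grid1 (1.35, adjusted p = 0.0412) passed in the first. For the genes that differed between the sites, the second interaction tests whether that difference depends on genotype, and none passed: Gabrb2 was at 0.20 (SE 0.37), Gabra5 at -0.22 (SE 0.31), Grin2b at -0.53 (SE 0.52), Gria1 at 0.15 (SE 0.42), Glra1 at 0.49 (SE 0.58) and Glra2 at -0.13 (SE 1.18).

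Some of these genes are neighbours. Among protein-coding genes of the RefSeq table for GRCm38.p6, 7 pairs of measured receptor genes lie next to each other, among them Gabrg1 and Gabra2 and, on the same chromosome 5, Gabra4 and Gabrb1. Against wildtype tissue Gabra4 and Gabrb1 were at -1.41 and -0.75 in wildtype spinal and at -0.67 and 0.77 in wildtype facial motor neurons. Gria2 and its neighbour Glrb were at -2.77 and 0.40 in wildtype spinal ones at their brightest probe sets, and at -0.21 and 2.26 at their second brightest.

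A promoter window was found for 32 of the 43 receptor genes, 39 windows in all. Their median GC content was 59.0%, against 52.7% over all 32851 windows. With either strand searched, 59.4% of these genes had a window with the GC box GGGCGG, found in 35.7% of all windows, and 43.8% had GGACAG, found in 22.2%. TATAAA was in windows of 4 genes (Gabra3, Gabrb2, Glra2 and Grin3b), or 12.5%, against 13.6% of all windows. The other RE1 element, CAGCACC, was in windows of 2 genes, the NRF1 sequence GCGCATGC in 1 and the homeodomain core TAATTA in 1. The cyclic AMP response element TGACGTCA and the Hox-Pbx sequence TGATTNAT were in none, with 1.79% and 3.22% of all windows holding them. Genes with several windows have more chances of a match, and by window the shares were 51.3% for GGGCGG and 38.5% for GGACAG.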

How the data were processed

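RNA of 18 samples was measured on Affymetrix mouse arrays, 1 array per sample. The authors deposited linear intensities, 1 value for each of 45101 probe sets and array, and every array has the same 2% trimmed mean, 2500. The steps from scan to intensity are not given in the sources used here. All value columns were mapped to a sample, 0 were left over. Arrays have no read depth, and their number, 3 per group, limits the precision.

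After adding 16 and taking log2, the 18 arrays were quantile normalized together. The platform annotation gave 34958 probe sets 1 symbol. Each gene was read from its brightest probe set. In each comparison genes in the lowest 40 percent by mean level were left out, and 10916 were tested with limma 3.58.1 in R 4.3.3 (lmFit, eBayes with a mean-variance trend), on the arrays of each of 10 comparisons. Adjusted p-values are Benjamini-Hochberg over all tested genes, with a threshold of 0.05, SE is the standard error of the log2 difference, and receptor genes were then read out. The fits were tested on simulated data. The log2(value + 16) scale understates changes of dim genes, so no fold is given where a group is below 8.79.

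The members, gene lists and tests were chosen with earlier results of these data known. Every receptor gene past the threshold is named, with full statistics for the 10 largest differences per direction. Where fewer than 4 passed, those with the smallest p were added up to 4. Companion genes are named up to 4 per direction by smallest p. Grid1, named where an array was left out, and the gene examples on neighbours were chosen after their values were seen. Promoter sequences are RefSeq windows of GRCm38.p6.

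Alternatives were a common median, normalization within the comparison, a pseudocount of 1 or 64, no filter or the 60th percentile, no trend, all 18 arrays in one fit, the replicate number as a block, the second brightest probe set, the actin ratio as a covariate, and each array left out.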

Additional observations from a re-analysis of the deposited data

Results flagged for a closer look

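The genotype difference of Gabrb1, the beta1 subunit gene of GABA-A receptors, ran in opposite directions in the 2 kinds of motor neuron. All 3 mutant spinal arrays lay above all 3 wildtype ones, at 14.003 to 14.39 against 12.57 to 13.56, and all 3 mutant facial arrays lay below the wildtype ones, at 14.46 to 14.49 against 14.65 to 14.86. The difference between both genotype effects was 1.19 on the log2 scale (SE 0.30) and did not pass the test across all genes in limma (adjusted p = 0.339). The other bright probe sets of Gabrb1 gave 0.19 and 0.82 for the genotype difference in spinal and -0.21 and -0.24 in facial motor neurons.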

How the results depend on the processing

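Of 68 results for single receptor genes past the test, 68 kept their call with a pseudocount of 1 and of 64, 66 without a filter, 61 with all 18 arrays in one fit, 57 without the mean-variance trend, 61 with a common median, and 354 of 408 with 1 array left out. The second probe set kept 21 of 37, with 9 lost and 7 turned, and the actin covariate 5 of 11. Counts of called receptor genes that moved by over 1.5 times were 1 in place of 0 for the genotype in spinal motor neurons with all 18 arrays in one fit, 14 in place of 22 for wildtype facial motor neurons against tissue with the 60th percentile filter (18 genes tested), 1 and 0 in place of 6 for wildtype spinal against facial motor neurons without the trend and with actin's ratio as covariate, and 2 in place of 5 for the mutant site comparison without the trend. Leaving out 1 array gave 0 to 3 genes for the genotype in spinal and 0 to 1 in facial motor neurons, 0 to 3 for its interaction with tissue, and 1 to 6 for the wildtype site comparison. That comparison had 1 gene without wildtype facial replicate 3, 2 without wildtype facial replicate 2 and 3 without wildtype spinal replicate 3. The mutant site comparison kept 5 to 6, and the comparisons with tissue 13 to 20, 17 to 19 and 16 to 21 (wildtype spinal, mutant spinal, wildtype facial). Directions turned with the second probe set for Gabra2 (-2.77 in wildtype and -2.77 in mutant spinal), Grik2 (-0.54) and Grm7 (-0.15) in wildtype spinal, Gabbr1 (-0.024) and Grin2b (-0.043) in mutant spinal, and Gabra4 (0.25) in facial motor neurons against tissue. With a common median they turned for Gabrb1 (0.24) in wildtype spinal, and Gabbr1 (0.77) and Gria4 (0.79) in facial motor neurons. The cause was not tested.

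Deviations of arrays with the same replicate number correlated at 0.30, 0.05 and 0.08 between mutant and wildtype tissue. They correlated from -0.07 to 0.14 in the other comparisons. The mean for arrays of equal number was positive in each genotype comparison. It was 0.145 for tissue, 0.101 for facial motor neurons and 0.0479 for spinal ones. For arrays of unequal number the mean was -0.0724, -0.0517 and -0.0239. Deviations from a group mean cancel out within each group. The mean for unequal numbers is thus nearly fixed by the other mean and is no separate baseline. Against tissue and between sites both means lay from -0.0374 to 0.0187. What arrays of equal number have in common was not tested. With the replicate number as a block 66 of 68 single-gene calls held, and the receptor genes called against tissue were 18, 19 and 21 in place of 16, 19 and 22, and between sites 5 and 5 in place of 6 and 5.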
